A study of Mus musculus with 20 samples.

Results

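The mitotic cell cycle genes are 35 genes. All but Ccne1 and Ccne2, cyclins that act earlier, are switched on together by dividing cells that enter mitosis, share out their chromosomes and split. They were chosen by name: cyclins and Cdk1, mitotic kinases, checkpoint genes, kinetochore genes, spindle genes and cytokinesis genes whose rows the study's count table marks as kept. All 35 were found among the 39253 genes of the table, all were among the 18169 genes marked as kept, and all were among the 17810 genes tested. Apart from the kept mark, the rule uses no measured value.

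Cells that leave G1 copy their DNA in S phase under E-type cyclins, and then build up A-type and B-type cyclins, which activate the kinase Cdk1 and start mitosis. Transcription of the mitotic genes peaks in G2 and M phase, and in resting cells their promoters are held silent by a repressor complex that reads a short element called the cell cycle genes homology region. In an antral follicle the granulosa cells are the main dividing cells, and their division makes the follicle grow. The oocyte inside the follicle stays arrested in meiosis, but it stores RNA of many of the same genes.

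The RNA came from antral follicles of 20 CD-1 mice, of which 5 drank iodoacetic acid (IAA), a by-product of water disinfection, at 10 mg/L, 5 drank it at 500 mg/L, and 10 control mice drank water alone. Exposure began at 40 days of age and ran for 35 consecutive days. Follicles of 220 to 400 µm were dissected at 75 days from mice in diestrus, 30 to 40 to a mouse, so each library is a pool of the follicles of 1 mouse. The headers of the count table split the mice between 2 experiments: the 10 mg/L group was run with 5 controls in experiment 2, and the 500 mg/L group with the other 5 controls in experiment 1. The doses were never given in the same experiment, so in a direct comparison of the doses a difference cannot be told apart from one between the experiments.

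Libraries held 39.9 M to 67.5 M estimated counts, and the 35 genes together took 0.218% to 0.338% of a library. Their mean estimated counts ran from 387 to 15825 per library, and the lowest single value was 211. Granulosa cell markers led the follicle markers, with a summed level of 11484 to 24122 CPM (counts scaled to library size by TMM) and 0 of 13 absent. Oocyte markers were also present, at 555 to 1145 CPM summed with 0 of 17 absent. In these bulk libraries fewer cells of a type and less RNA per cell cannot be told apart, nor can granulosa cell RNA of a mitotic gene be separated from oocyte RNA.

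The genes share features of their promoters that the choice by name did not use. Windows from 250 bases before to 50 bases after the gene start, from RefSeq on GRCm38.p6, were matched for 30 of the 35 genes and searched on both strands. The core of the cell cycle genes homology region, TTTGAA or its variant TTCGAA, was found in a window of 22 of the 30 genes (73.3%), against 17.1% of the 13910 kept genes with a window. The letters CCAAT, the box bound by the trimeric factor NF-Y, were in a window of 21 of the 30 genes (70.0%), against 42.2% of kept genes. Both kinds stood in the same window in 19 of 30 genes (63.3%), against 7.10% of kept genes. No motif searched contains another. No window was matched for Ccna2, Ccne2, Aurkb, Tpx2 and Cdca2. These are matches of letters in a window, and a window without a match says nothing about the factor.

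The promoters of the 4 genes whose level followed the rest of the set most closely over the mice, as described below, are shown with these motifs in capitals on either strand. The windows are chr7:80294201-80294500 on the plus strand for Prc1, chr2:118597961-118598260 on the plus strand for Bub1b, chr2:127831810-127832109 on the minus strand for Bub1 and chr9:83834439-83834738 on the plus strand for Ttk, each 5′ to 3′ along its gene.
Prc1: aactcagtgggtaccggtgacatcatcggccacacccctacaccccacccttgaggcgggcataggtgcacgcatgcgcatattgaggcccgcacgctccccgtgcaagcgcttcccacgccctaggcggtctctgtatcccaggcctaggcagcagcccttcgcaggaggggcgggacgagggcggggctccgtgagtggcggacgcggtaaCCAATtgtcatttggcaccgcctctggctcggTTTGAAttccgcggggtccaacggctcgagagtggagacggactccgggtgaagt
Bub1b: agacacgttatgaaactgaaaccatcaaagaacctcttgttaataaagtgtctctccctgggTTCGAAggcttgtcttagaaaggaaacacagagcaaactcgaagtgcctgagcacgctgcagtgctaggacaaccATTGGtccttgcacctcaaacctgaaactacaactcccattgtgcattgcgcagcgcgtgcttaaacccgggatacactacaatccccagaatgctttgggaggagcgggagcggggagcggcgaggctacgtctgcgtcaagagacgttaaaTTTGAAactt
Bub1: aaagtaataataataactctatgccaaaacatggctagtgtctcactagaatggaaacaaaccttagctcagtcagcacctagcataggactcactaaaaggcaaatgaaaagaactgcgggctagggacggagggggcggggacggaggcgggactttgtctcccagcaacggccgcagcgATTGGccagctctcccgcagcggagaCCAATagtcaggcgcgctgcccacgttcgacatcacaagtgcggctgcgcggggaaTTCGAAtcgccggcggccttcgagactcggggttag
Ttk: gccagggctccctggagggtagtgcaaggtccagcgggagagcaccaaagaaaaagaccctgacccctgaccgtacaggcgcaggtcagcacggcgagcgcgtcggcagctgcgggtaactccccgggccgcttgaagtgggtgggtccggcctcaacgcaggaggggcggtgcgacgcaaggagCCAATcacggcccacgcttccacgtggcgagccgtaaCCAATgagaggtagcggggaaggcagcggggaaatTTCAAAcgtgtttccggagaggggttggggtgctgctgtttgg
In Prc1 a CCAAT box begins 37 bases before the start and TTTGAA 5 bases before it. In Bub1 the boxes begin 68 and 42 bases before the start, with TTCGAA 14 bases after the start. In Ttk the boxes begin 65 and 28 bases before the start, with the reverse complement of TTTGAA 7 bases after it. In Bub1b the box lies farther out, 113 bases before the start, with TTTGAA 40 bases after the start and TTCGAA 188 bases before it. RefSeq gives Prc1 more than 1 start, and of its 2 windows the one with more motif matches, or the first listed in a tie, is shown.

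Of the 35 genes, 0 passed an adjusted p under 0.05 at either dose in edgeR's quasi-likelihood test, as the plots of each gene by mouse and by dose show. Of the 35, 27 were lower and 8 higher at 10 mg/L than in the 10 controls, with a median log2 change of −0.058. The 500 mg/L group had 9 lower and 26 higher, with a median of 0.087. The medians over all 17810 genes were −0.00039 and −0.00014, with about even numbers of each sign. Over all genes, 0.00561% were called at 10 mg/L and 0.0112% at 500 mg/L.

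**Figure D1:**
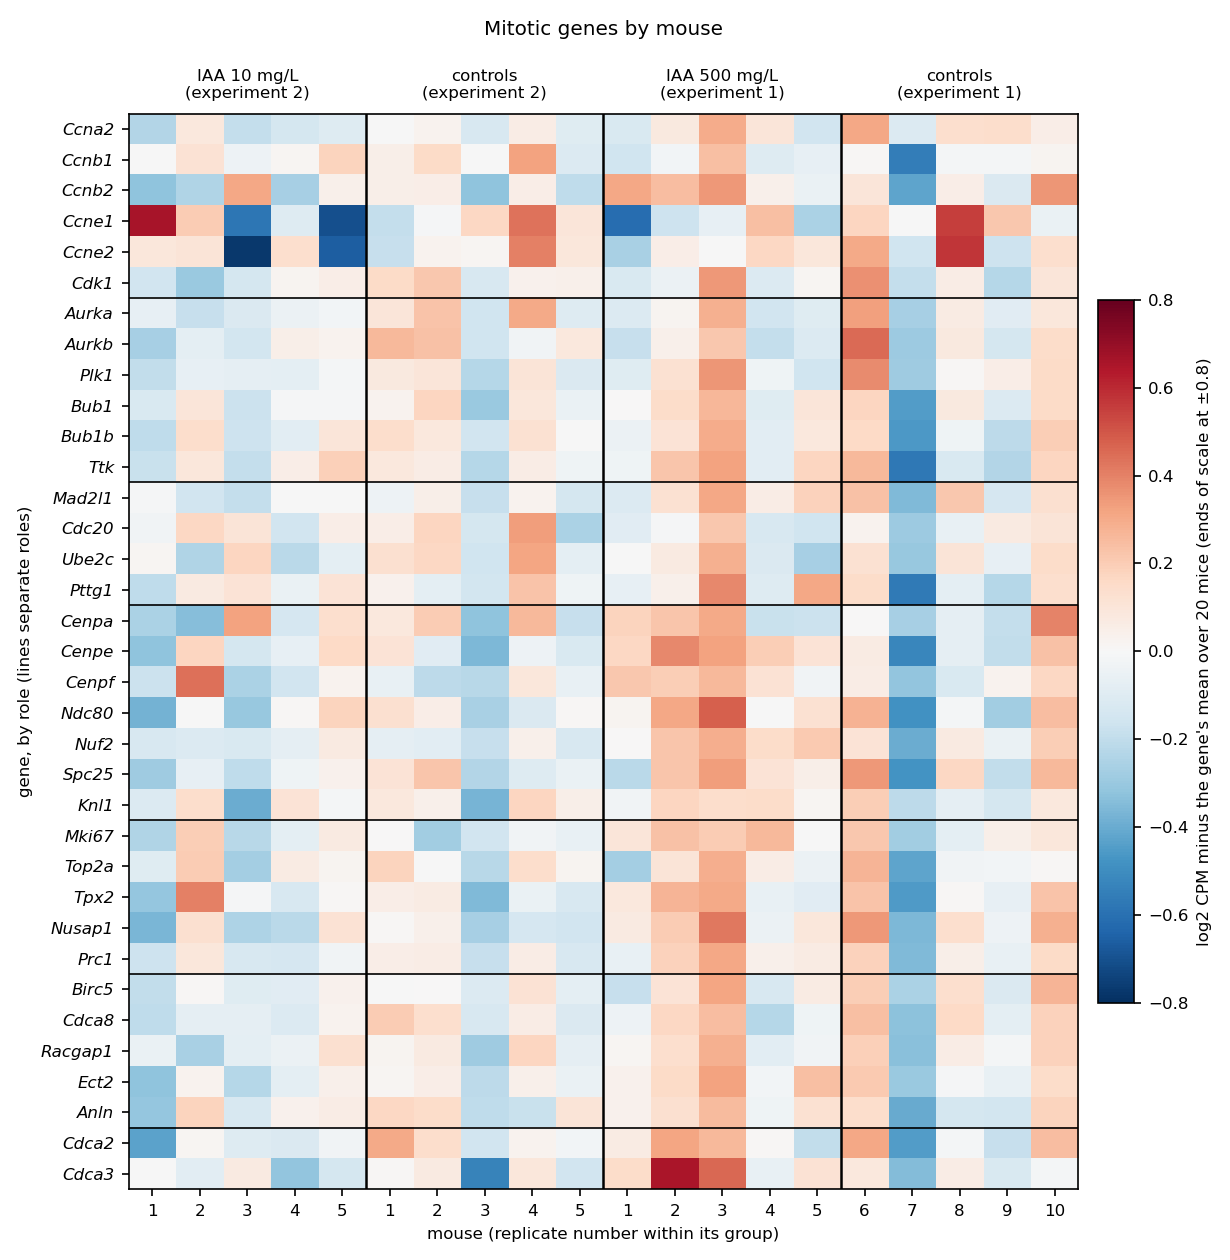
Level of each of the 35 genes (rows, by role) in each of the 20 mice (columns, by group), as log2 CPM minus the mean of the gene over all mice. Whole columns share a colour: control replicate 7 was low in all 35 genes and control replicate 6 high in all 35.

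The intervals were narrow, although the shares over all genes given beside them include genes of lower level and were not matched for it. At 10 mg/L the 95% interval of 34 of 35 genes lay inside a 1.5-fold change either way, against 65.7% of all genes, and at 500 mg/L that of 33 of 35, against 65.4%. The exceptions were Ccne2 at 10 mg/L, and Ccne1 and Cdca3 at 500 mg/L. Standard errors of the log2 changes ran from 0.076 to 0.19 over both doses. In none of the 35 genes did the mice of a dose stand wholly above or below the controls of the same experiment. Over all genes such a split was seen in 1.04% at 10 mg/L and in 0.932% at 500 mg/L.

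**Figure D2:**
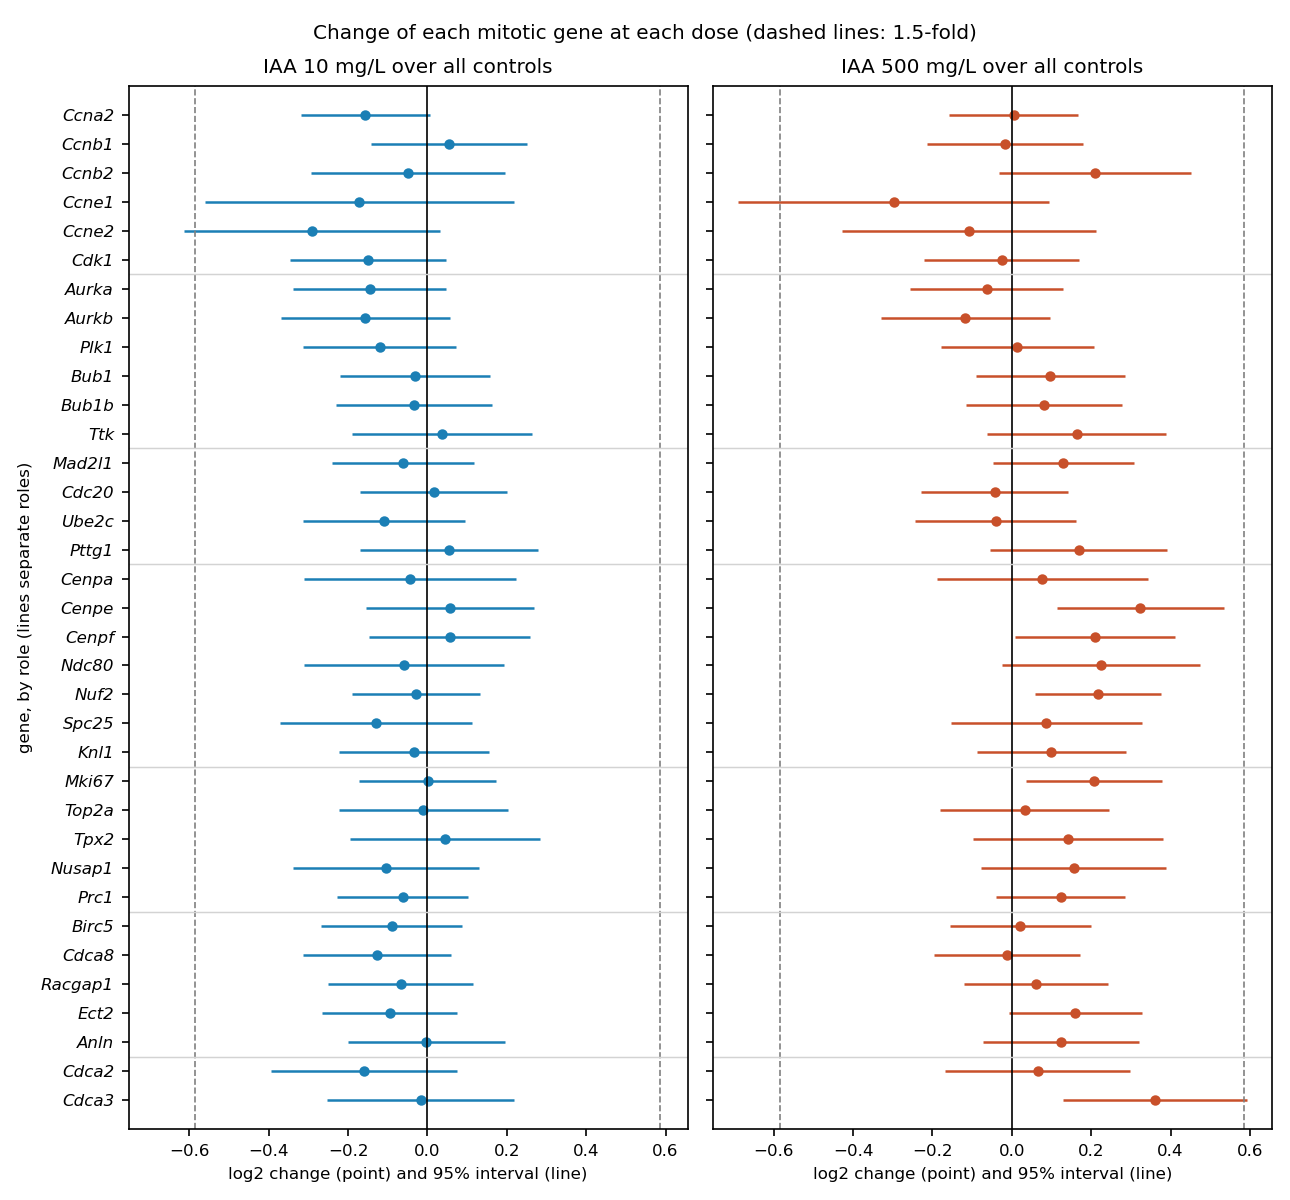
Log2 change of each gene (point) with its 95% interval (line) at 10 mg/L (left) and 500 mg/L (right), each against all 10 controls, with dashed lines at 1.5-fold. At 10 mg/L every interval crosses 0, while at 500 mg/L those of Cenpe, Cenpf, Nuf2, Mki67 and Cdca3 lie above it.

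Of the cyclins and Cdk1, 0 of 6 were called at either dose. There were 5 of 6 lower at 10 mg/L, with a median log2 change of −0.15. Ccna2, the A-type cyclin of S and G2 phase, had the smallest unadjusted p of the 35 at this dose. Its level was 119, 148, 123, 127 and 130.3 CPM in the mice given 10 mg/L, against 139, 142, 128, 146 and 131 CPM in the controls of experiment 2. In experiment 1 it was 129, 148, 172, 149.7 and 126 CPM in the mice given 500 mg/L, against 173, 130.0, 154, 154 and 145 CPM in the controls. Each dose overlapped its own controls, and the controls of experiment 1 had the highest mean. The change at 10 mg/L against all controls was −0.16 (SE 0.078, adjusted p = 0.807), and against the controls of experiment 2 alone −0.086 (SE 0.087, adjusted p = 0.899). The change at 500 mg/L was 0.0052 (SE 0.078, adjusted p = 0.993).

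Ccne2, an E-type cyclin that drives entry into S phase, was 22.7, 22.9, 12.5, 23.3 and 13.4 CPM in the mice given 10 mg/L, against 18.7, 21.7, 21.5, 28.1 and 22.7 CPM in the controls of experiment 2. A pair of mice, replicates 3 and 5, stood low at 10 mg/L, and the other 3 lay among the controls. In experiment 1 it was 17.8, 22.1, 21.3, 23.9 and 22.7 CPM at 500 mg/L, against 26.2, 19.0, 31.6, 18.9 and 23.4 CPM in the controls. The change at 10 mg/L was −0.29 (SE 0.15, adjusted p = 0.819), and without replicate 3 it was −0.17. Its relative Ccne1 was low in the same mice, with 12.5, 9.12, 5.30, 7.36 and 4.86 CPM at 10 mg/L, against 6.96, 7.88, 8.89, 10.7 and 8.49 CPM in the controls of experiment 2. Ccne1 changed by −0.17 at 10 mg/L (SE 0.19, adjusted p = 0.921) and by −0.30 at 500 mg/L (SE 0.19, adjusted p = 0.692).

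Cdk1, the kinase that starts mitosis, was 89.4, 81.1, 90.3, 101 and 103 CPM in the mice given 10 mg/L, against 111, 115, 91.0, 102 and 102 CPM in the controls of experiment 2. It was 91.3, 96.3, 127, 92.2 and 101 CPM in the mice given 500 mg/L, against 128, 87.3, 104, 85.1 and 106 CPM in the controls of experiment 1. The groups overlapped in both experiments, and the mice at 500 mg/L and their controls covered nearly the same range. The change was −0.15 at 10 mg/L (SE 0.094, adjusted p = 0.841) and −0.026 at 500 mg/L (SE 0.094, adjusted p = 0.971).

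Ccnb1, the B-type cyclin that partners Cdk1, was 75.7, 82.3, 73.6, 76.7 and 85.9 CPM in the mice given 10 mg/L, against 78.4, 84.5, 75.6, 94.9 and 70.2 CPM in the controls of experiment 2. It was 67.8, 74.6, 89.6, 70.6 and 72.4 CPM at 500 mg/L, against 76.5, 51.8, 75.0, 75.2 and 76.9 CPM in the controls of experiment 1. Apart from control replicate 7 at 51.8 CPM, the mice ran from 67.8 to 94.9 CPM. The change was 0.054 at 10 mg/L (SE 0.094, adjusted p = 0.960) and −0.017 at 500 mg/L (SE 0.095, adjusted p = 0.982). Between the controls of experiment 1 and those of experiment 2 it was −0.18 (SE 0.10, adjusted p = 0.595), and without control replicate 7 it was −0.089. A processed copy, Ccnb1-ps, held 224 to 551 estimated counts per library, and reads could have been split between it and Ccnb1. The other B-type cyclin, Ccnb2, changed by −0.050 at 10 mg/L and by 0.21 at 500 mg/L (SE 0.12, adjusted p = 0.631).

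The 6 mitotic kinases also gave 0 calls. Aurka, which ripens the centrosomes, Aurkb, the kinase of the chromosomal passenger complex, and Plk1, which acts from mitotic entry to cytokinesis, changed by −0.15, −0.16 and −0.12 at 10 mg/L. Their changes at 500 mg/L were −0.063, −0.12 and 0.014. Bub1, Bub1b and Ttk, which signal from unattached kinetochores to hold back anaphase, changed by −0.032, −0.034 and 0.037 at 10 mg/L and by 0.096, 0.080 and 0.16 at 500 mg/L. Their adjusted p values were 0.846 or more at 10 mg/L and 0.710 or more at 500 mg/L.

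Of the checkpoint and anaphase genes, 2 of 4 were higher at each dose and 0 were called. Mad2l1, the checkpoint protein that blocks Cdc20, changed by −0.061 at 10 mg/L and by 0.13 at 500 mg/L. Cdc20, which activates the anaphase-promoting complex, changed by 0.016 and −0.043 at those doses, and Ube2c, the ubiquitin-conjugating enzyme of that complex, by −0.11 and −0.041. Pttg1, the securin that guards sister cohesion, changed by 0.055 at 10 mg/L and by 0.17 at 500 mg/L (SE 0.11, adjusted p = 0.693).

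The 7 kinetochore and centromere genes were all higher at 500 mg/L against all controls and against the controls of experiment 1, with medians of 0.21 and 0.18 and 0 calls. Without control replicate 7, which was low in all 35 genes, 6 of 7 were higher than the controls of experiment 1, with a median of 0.093. Spc25 then changed by −0.047, Nuf2 by 0.093 and Ndc80 by 0.12. Of the 7, 2 were higher at 10 mg/L, with a median of −0.034. Cenpe, a kinesin that carries chromosomes to the spindle equator, was 79.3, 92.1, 88.4, 80.9 and 76.3 CPM in the mice given 500 mg/L, against 74.0, 49.2, 67.2, 61.7 and 82.9 CPM in the controls of experiment 1. It was 56.5, 79.7, 64.1, 67.5 and 78.9 CPM in the mice given 10 mg/L, against 76.3, 66.3, 55.1, 68.7 and 64.9 CPM in the controls of experiment 2. All mice given 500 mg/L stood high, above every control except control replicate 10. The change at 500 mg/L was 0.32 against all controls (SE 0.10, adjusted p = 0.346) and 0.32 against those of experiment 1 (SE 0.12, adjusted p = 0.954). The change at 10 mg/L was 0.057 (SE 0.10, adjusted p = 0.961).

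Nuf2, a subunit of the microtubule-binding complex of the kinetochore, had a mean of 40.9 ± 2.99 CPM at 500 mg/L against 36.2 ± 5.44 CPM in the controls of experiment 1 (SD, n = 5 each). Its change against all controls was 0.22 (SE 0.076, adjusted p = 0.417). Cenpf, a large protein of the outer kinetochore, had a mean of 115 ± 8.78 CPM at 500 mg/L against 102 ± 12.8 CPM (SD, n = 5 each), with a change of 0.21 (SE 0.097, adjusted p = 0.553). Ndc80 and Spc25, which sit in the same complex as Nuf2, changed by 0.22 and 0.087 at 500 mg/L, and Knl1, the scaffold that recruits Bub1, by 0.10. Cenpa, the histone that marks centromeres, changed by 0.077.

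The 5 spindle and chromosome genes were all higher at 500 mg/L, with a median of 0.14 and 0 calls. Of these, 2 of 5 were higher at 10 mg/L. Mki67, the classical marker of dividing cells, was 299, 328, 322, 335 and 279 CPM in the mice given 500 mg/L, against 324, 231, 265, 289 and 297 CPM in the controls of experiment 1. It was 237, 319.7, 239.9, 265 and 294 CPM in the mice given 10 mg/L, against 279.9, 231, 251, 274 and 268 CPM in the controls of experiment 2. The groups overlapped in both experiments. The change at 500 mg/L was 0.21 against all controls (SE 0.083, adjusted p = 0.472) and 0.15 against those of experiment 1 (SE 0.095, adjusted p = 0.963), or 0.090 without control replicate 7. The 10 mg/L change was 0.00014 (SE 0.083, adjusted p = 1.00), with a 95% interval of −0.17 to 0.17. Top2a, which untangles sister DNA, changed by 0.033 at 500 mg/L, Tpx2, which starts microtubules, by 0.14, Nusap1, which bundles them, by 0.16, and Prc1, which crosslinks the midzone, by 0.12.

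Of the chromosomal passenger and cytokinesis genes, 0 of 5 were higher at 10 mg/L and 4 of 5 at 500 mg/L, with medians of −0.090 and 0.061. Birc5 and Cdca8, partners of Aurkb, changed by 0.022 and −0.012 at 500 mg/L. Racgap1, Ect2 and Anln, which place and tighten the contractile ring, changed by 0.061, 0.16 and 0.12. The lowest of the 5 at 10 mg/L was Cdca8 at −0.13 (SE 0.089, adjusted p = 0.869).

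Cdca3, a part of a ubiquitin ligase that lets cells enter mitosis, had the largest log2 change and the smallest p of the 35 at 500 mg/L. It was 43.2, 61.5, 53.7, 37.5 and 42.4 CPM in the mice given 500 mg/L, against 41.5, 30.7, 40.8, 35.8 and 38.6 CPM in the controls of experiment 1. It was 38.9, 36.8, 41.1, 31.4 and 35.4 CPM at 10 mg/L, against 39.3, 41.1, 27.0, 41.5 and 35.1 CPM in the controls of experiment 2. All mice given 500 mg/L but replicate 4 stood above every control, and replicates 2 and 3 were the highest of the 20 mice. The change at 500 mg/L was 0.36 against all controls (SE 0.11, adjusted p = 0.341) and 0.35 against the controls of experiment 1 (SE 0.13, adjusted p = 0.954). The 10 mg/L change was −0.017 (SE 0.11, adjusted p = 0.990). Cdca2, which targets a phosphatase to chromatin, changed by −0.16 at 10 mg/L and by 0.065 at 500 mg/L.

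**Figure D3:**
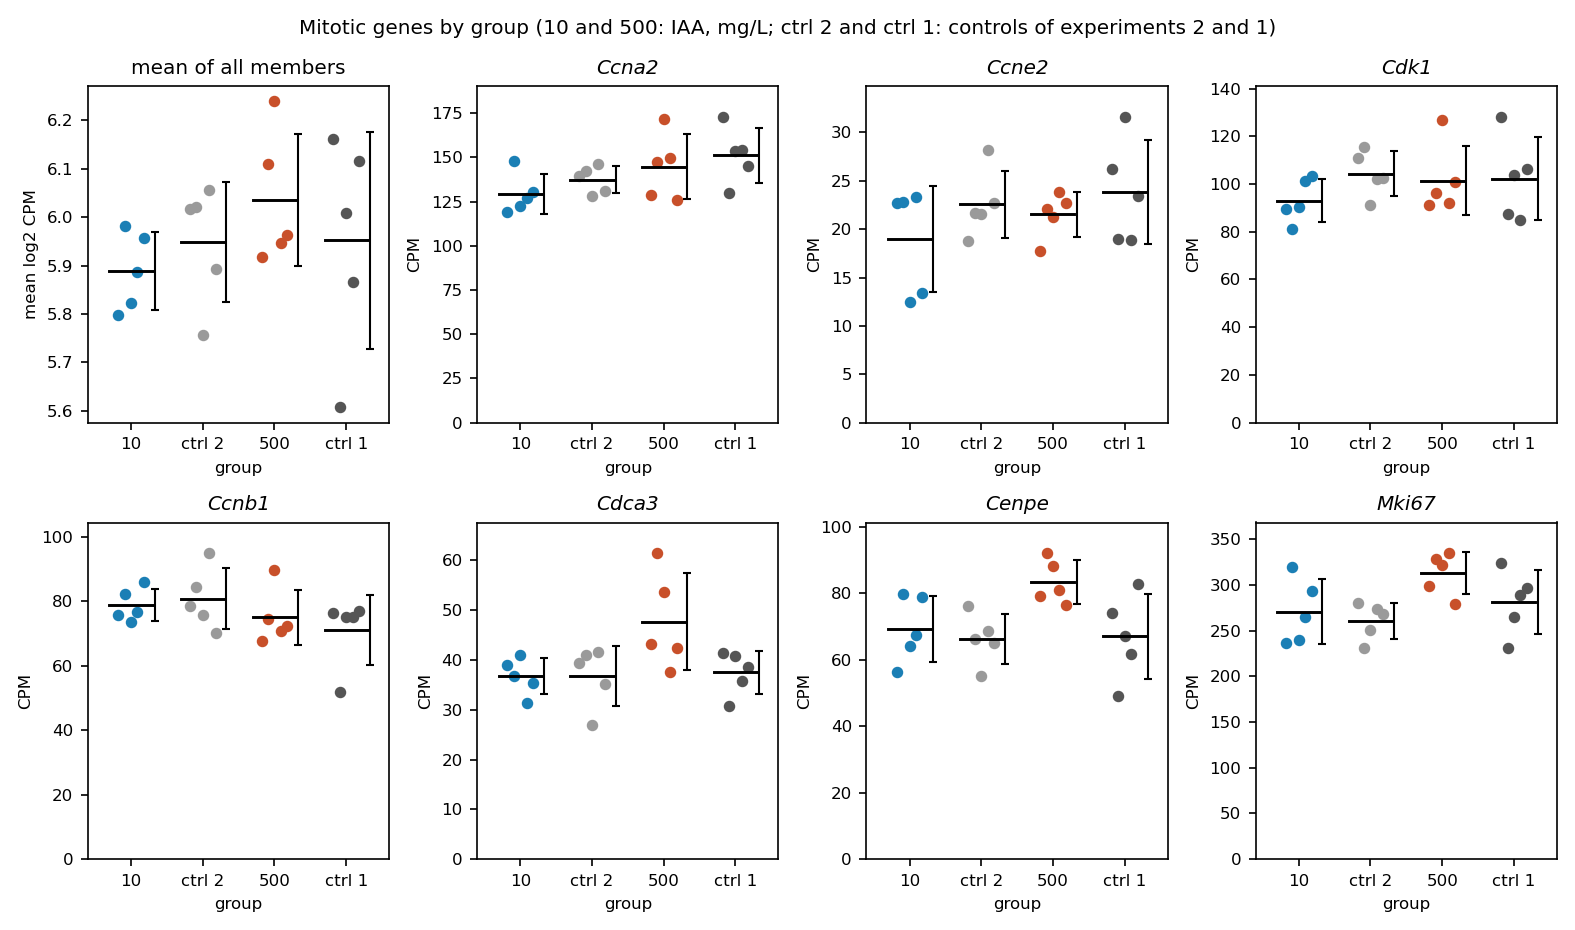
Mean log2 CPM of all 35 genes per mouse (first panel) and CPM of 7 genes described mouse by mouse (axes from 0), with points for mice, horizontal lines for group means and error bars for the SD (n = 5 each). In every panel the mice of a dose overlap the controls of their own experiment, shown to their right.

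Counted at an unadjusted p under 0.05, 5 of 35 genes were higher at 500 mg/L and 0 lower, where 4.51% of all genes were higher and 4.18% lower. In either direction the share was 8.69%. The 5 genes were Cdca3, Cenpe, Nuf2, Mki67 and Cenpf. Against the controls of experiment 1 alone, 2 were left, Cenpe and Cdca3, both higher, where 2.73% of all genes were higher and 5.19% changed in either direction by this measure. For 10 mg/L the count was 0 of 35, both against all controls, where the share over all genes was 6.22%, and against those of experiment 2, where it was 6.45%. The median over the 35 genes against own controls was 0.092 at 500 mg/L and −0.048 at 10 mg/L. These values leaned on single mice. Without control replicate 7 the median at 500 mg/L against own controls was 0.0018, with 0 genes at an unadjusted p under 0.05, and without replicate 3 at 500 mg/L the median against all controls was 0.025.

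The doses were also set against each other. Of the 35 genes, 32 were higher at 500 mg/L than at 10 mg/L, where 49.6% of all genes were, with a median of 0.13. Of the 35, 0 were called (0.0112% of all genes) and 5, all higher, had an unadjusted p under 0.05 (5.61% of all genes higher, 10.0% in either direction). The 35 genes moved together between mice, as described below, so their signs are not separate results. Each dose was then measured against its own controls. The effect at 500 mg/L minus the effect at 10 mg/L was positive in 34 of 35 genes, with a median of 0.14, where 51.8% of all genes were positive. This difference gave 0 calls (0% of all genes), 0 genes at an unadjusted p under 0.05 (5.41% of all genes) and a smallest adjusted p of 0.928, for Cdca3. The exception in sign was Ccne1 at −0.20 (SE 0.31). The controls of experiment 1 minus those of experiment 2 gave a median of 0.017, with 20 genes higher and 15 lower 0 called (0.157% of all genes) and 0 at an unadjusted p under 0.05 (9.78% of all genes). Without control replicate 7 this median was 0.10.

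The authors' deposited table covers the same mice, with a model that is not given in the sources used here. In the authors' deposited table, 3 of the 35 genes pass an adjusted p under 0.05 at 500 mg/L, against 1.26% of its genes, namely Cenpe (fold change 1.25, adjusted p = 0.0236), Nuf2 (1.15, adjusted p = 0.0461) and Cdca3 (1.26, adjusted p = 0.0463). At 10 mg/L, 0 of 35 pass in the authors' deposited table, against 0.611% of its genes, with Ccne2 the nearest (fold change −1.25, meaning lower, adjusted p = 0.172). Between the doses the authors' deposited table has 1 of 35, Ect2 (fold change 1.18, adjusted p = 0.0486), against 1.59% of its genes.

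The other genes of the cycle were counted by list. Of 62 other mitotic genes, 0 were called at either dose. They were lower in 42 of 62 at 10 mg/L with a median of −0.048 and higher in 50 of 62 at 500 mg/L with a median of 0.097. Of them, 11 were higher at 500 mg/L at an unadjusted p under 0.05 and 0 lower, led by Cep55, which acts at the final cut between daughter cells, at 0.34 (SE 0.087, adjusted p = 0.267), and Mastl, a kinase that protects mitotic phosphorylation, at 0.37 (SE 0.11, adjusted p = 0.339). The shares over all genes were 4.51% higher and 4.18% lower. Against the controls of experiment 1 alone, 6 of the 62 were higher by that measure, where 2.73% of all genes were, with a smallest adjusted p of 0.954. At 10 mg/L the smallest p were those of Fbxo5, an inhibitor of the anaphase-promoting complex, at −0.25 (SE 0.087, adjusted p = 0.698), and of the centromere gene Cenpk, at −0.27 (SE 0.11, adjusted p = 0.758).

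Of 31 genes of DNA replication, 28 were lower at 10 mg/L than in all controls, with a median of −0.097. At 500 mg/L 25 were lower, with a median of −0.070, and 0 were called at either dose. Against own controls 29 were lower at 10 mg/L and 19 at 500 mg/L, with medians of −0.13 and −0.015. The controls of experiment 1 were themselves lower than those of experiment 2 in 25 of 31, with a median of −0.089. Slbp, which binds histone mRNA, changed by −0.23 at 10 mg/L (SE 0.080, adjusted p = 0.723) and the transcription factor E2f1 by −0.23 (SE 0.14, adjusted p = 0.827). At 500 mg/L the nuclease Fen1 changed by −0.24 (SE 0.098, adjusted p = 0.474) and Dbf4, which activates the kinase that fires origins, by 0.17 (SE 0.081, adjusted p = 0.573). Of 6 G1 cyclins and kinases, 3 were higher at 10 mg/L and 1 at 500 mg/L, with 0 called. Cdk6 changed by 0.18 and Cdk4 by −0.080 at 10 mg/L, while Ccnd3 changed by −0.35 (SE 0.12, adjusted p = 0.378) and Cdk4 by −0.13 at 500 mg/L. Of 18 inhibitors of cyclin-dependent kinases and quiescence genes, 9 were higher at 10 mg/L and 7 at 500 mg/L, with 0 called. Btg2, an antiproliferative gene that is also an immediate early gene, changed by 1.09 at 10 mg/L (SE 0.46, adjusted p = 0.760) and by 1.04 at 500 mg/L (SE 0.46, adjusted p = 0.542). Its mean was 76.1 ± 26.5 CPM at 10 mg/L and 73.8 ± 98.9 CPM at 500 mg/L (SD, n = 5 each). In all controls it was 35.7 ± 11.8 CPM (SD, n = 10). Cdkn1b, the inhibitor p27, changed by −0.22 at 10 mg/L and Cdkn2a, at a mean of 0.317 CPM in the exposed mice and 0.528 CPM in the controls, by −0.72 at 500 mg/L.

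Levels of the mitotic genes differed more between mice than between groups. The mean log2 CPM over the 35 genes was 5.89 ± 0.081 at 10 mg/L against 5.95 ± 0.12 in the controls of experiment 2, and 6.04 ± 0.14 at 500 mg/L against 5.95 ± 0.22 in the controls of experiment 1 (SD, n = 5 each). The differences from own controls, −0.059 and 0.083, were smaller than the SD of 0.15 between mice of a group. The mouse with the lowest mean was control replicate 7, at 0.35 below the mean of all mice, with all 35 genes below their own means. The highest was replicate 3 at 500 mg/L, at 0.28 above, with 33 of 35 genes above, and control replicate 6 followed at 0.21 with all 35 above.

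After the mean of each group in its experiment was taken off, the levels of the genes were correlated over the 20 mice. The median Pearson r over the 595 pairs was 0.672, with 573 pairs positive, while the median over all pairs of the 17810 genes was −0.003. It was 0.80 over the 10 mice of experiment 1 and 0.529 over the 10 of experiment 2, and 0.580 without control replicate 7. A single axis held 59.2% of the variance of the set. These values describe libraries of pooled follicles, in which all genes of a mouse share 1 library.

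**Figure D4:**
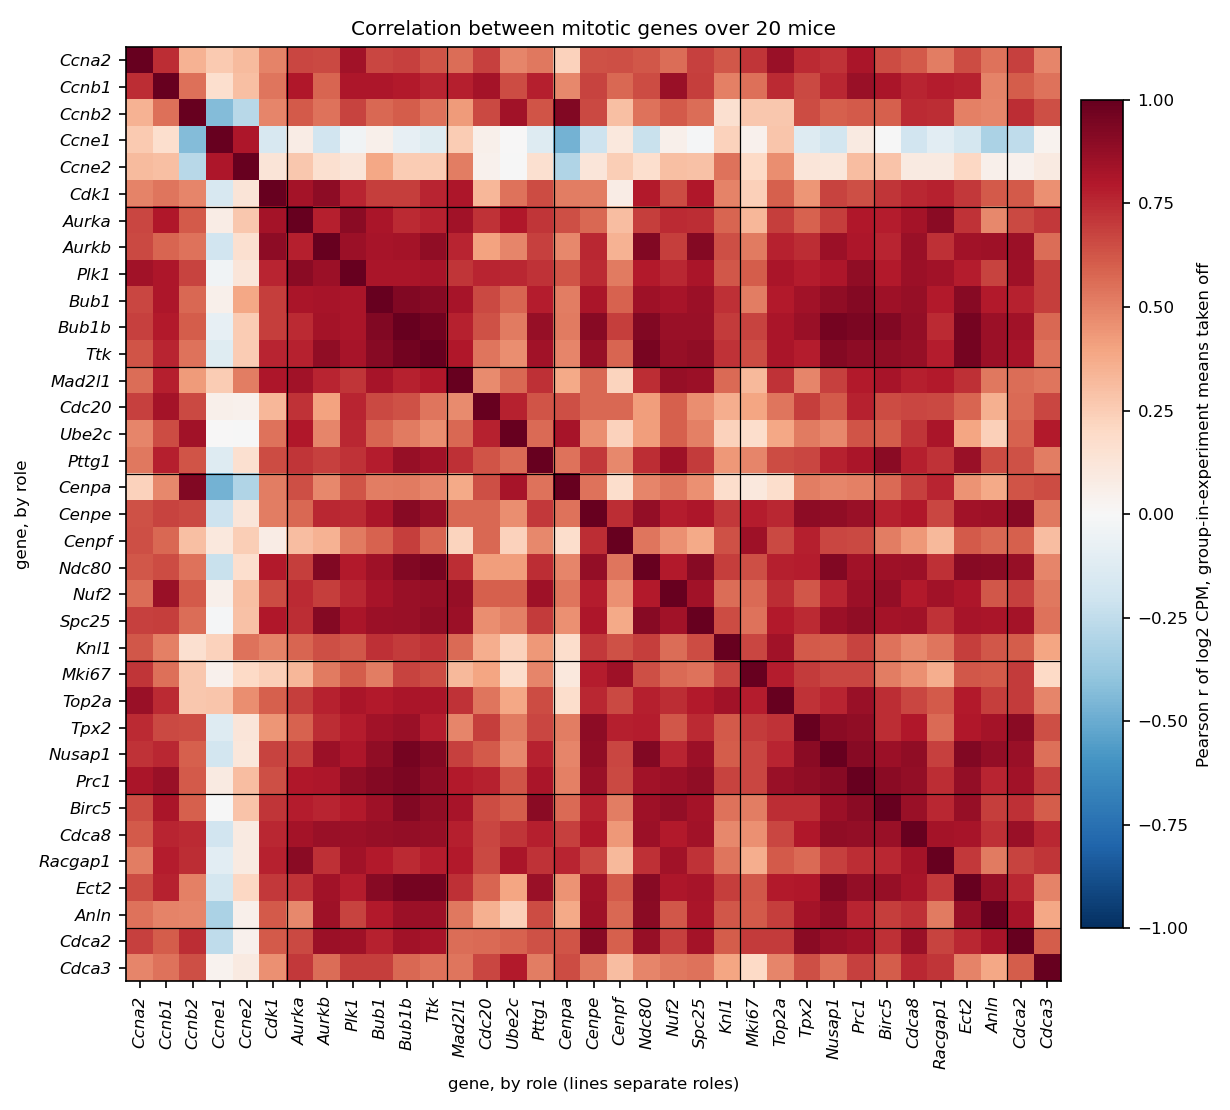
Pearson correlation between each pair of the 35 genes over 20 mice, from log2 CPM with the mean of each group in its experiment taken off, in order of role. Nearly all pairs are positive except for those of the E-type cyclins Ccne1 and Ccne2, whose rows and columns stand out pale or negative.

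Prc1, Bub1b, Bub1 and Ttk, the genes whose promoters are printed above, followed the mean of the other genes best, at r of 0.973, 0.954, 0.946 and 0.931. In all, 22 of 35 genes were above 0.8 and 33 above 0.5. The pair with the highest r was Bub1b and Ttk, at 0.964. Among the mitotic genes proper the lowest were Cenpa at 0.548, Cenpf at 0.608, Ccnb2 at 0.631 and Mki67 at 0.635. The exceptions were the E-type cyclins, Ccne2 at 0.261 and Ccne1 at −0.034. Ccne2 instead followed the mean of the DNA replication genes, at an r of 0.818, and Ccne1 did so at 0.627, while Prc1 did so at 0.379. The window of Ccne1 holds none of the motifs searched, and no window of Ccne2 was matched. The windows of Mad2l1, Pttg1, Nuf2, Nusap1 and Birc5 hold none either. These genes followed the mean of the other genes at r of 0.823, 0.814, 0.874, 0.906 and 0.908.

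Of 17775 other genes, 60 (0.338%) followed the mean of the 35 at an r above 0.8. The 10 closest among genes of at least 2 CPM were Kif15 (0.948), Ska3 (0.937), Spag5 (0.919), Nek2 (0.913), Incenp (0.909), Kif14 (0.907), Kif11 (0.899), Smc4 (0.899), Cep55 (0.896) and Hyls1 (0.893). Of these 10, 6 were on the list of other mitotic genes, and Ska3, Spag5, Kif14 and Hyls1 were not. The 5 farthest in the other direction were Nacc2 (−0.889), Map7d1 (−0.888), Efnb1 (−0.868), Tom1 (−0.865) and Bcl6b (−0.861). Efnb1, the membrane ligand ephrin B1, ran from 79.0 to 191 CPM over the mice, and Kif15, a spindle kinesin, from 31.4 to 61.1 CPM.

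**Figure D5:**
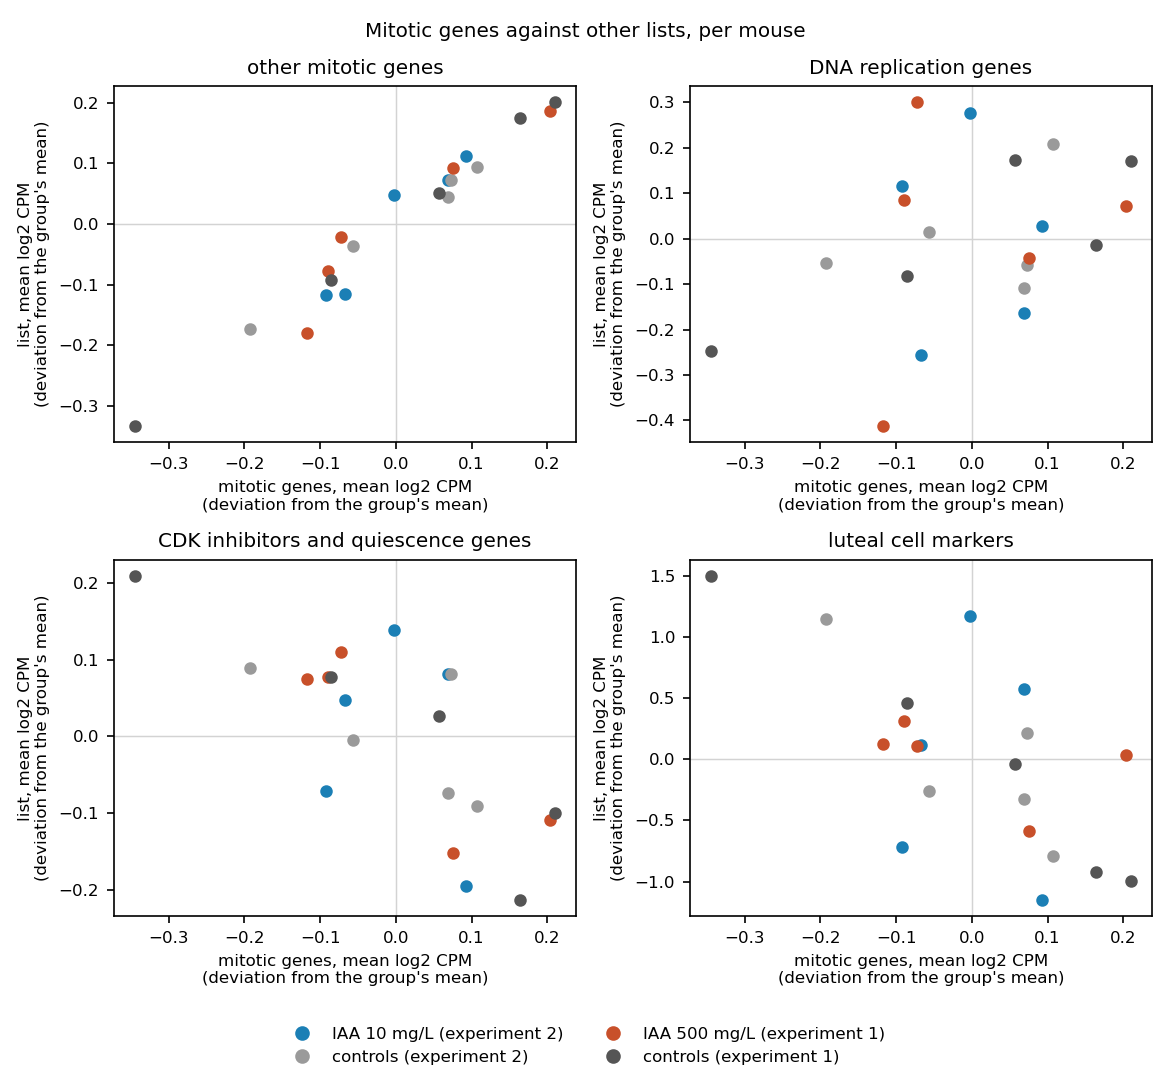
Mean log2 CPM of the 35 genes (x axis) against that of 4 other lists (y axes) in each of 20 mice, as deviations from the mean of the mouse's own group. Other mitotic genes lie on a line with the set, DNA replication genes scatter, and control replicate 7 is the point farthest left in each panel.

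The mean of the 62 other mitotic genes followed that of the set at an r of 0.980 (Spearman rho 0.974, 0.986 in experiment 1 and 0.959 in experiment 2, 0.966 without the 2 mice farthest from the median). For the 31 DNA replication genes r was 0.379 (rho 0.310, 0.501 and 0.117 by experiment, 0.238 without those mice). For the 18 inhibitors and quiescence genes it was −0.729 (rho −0.708, −0.896 and −0.374 by experiment, −0.641 without those mice). That is the r of the mean of the list. Taken singly its genes had both signs, from −0.609 for Cdkn2b to 0.382 for Rbl1. The 2 mice left out were control replicates 7 and 3.

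Markers of other cell types moved with the set to different degrees. Luteal markers ran against it at an r of −0.674 (rho −0.656, −0.879 and −0.435 by experiment, −0.446 without the 2 farthest mice). Leukocyte markers did so at −0.521 (rho −0.489), with −0.890 in experiment 1 and 0.232 in experiment 2. For smooth muscle and pericyte markers r was −0.511 (rho −0.480), with −0.752 in experiment 1 and 0.115 in experiment 2. It was −0.448 (rho −0.392) for theca cell markers, with −0.572 and −0.323 by experiment, and −0.415 (rho −0.424) for endothelial markers, with −0.702 and 0.039. Granulosa cell markers had opposite signs in the experiments, 0.340 in experiment 1 and −0.305 in experiment 2, around a pooled r of 0.060 (rho −0.191). For oocyte markers r was 0.428 (rho 0.414), with 0.548 and 0.270 by experiment, and for the library total 0.061 (rho −0.027). Against own controls, 14 of 17 oocyte markers were lower at 10 mg/L (median −0.11) and 16 higher at 500 mg/L (median 0.17), with 0 called. Against all controls the medians were −0.025 and 0.047. The controls of experiment 1 were themselves lower than those of experiment 2 in 16 of 17 (median −0.20). The part of the oocyte in the level of the mitotic genes was not tested. Control replicate 7, the lowest mouse for the mitotic genes, had the highest summed level of the 7 luteal markers, 7374 CPM where the other controls of its experiment had 970.3 to 2895, and the highest of the 9 leukocyte markers, 279 CPM where they had 106 to 206. Replicate 4 at 10 mg/L also had luteal markers at 6397 CPM, and its mitotic genes were 0.069 below the mean of all mice. Over the groups, luteal markers summed to 1430 to 6397 CPM at 10 mg/L against 879 to 2534 CPM in the controls of experiment 2, and to 1114 to 2213 CPM at 500 mg/L against 970.3 to 7374 CPM in the controls of experiment 1. Of the luteal markers 1, Lhcgr, is also a theca cell marker. None of the luteal or leukocyte markers was absent from all libraries, and their part in the level of the mitotic genes was not tested. Endothelial markers were higher at 10 mg/L in 10 of 10 genes, with a median log2 change of 0.31, 7 at an unadjusted p under 0.05 (6.22% of all genes in either direction) and 0 called, and their part was not tested. Immediate early genes, which rise within minutes of handling or stimulation, were higher at both doses in 10 of 10 genes tested, with medians of 1.19 at 10 mg/L and 1.45 at 500 mg/L. At each dose 8 of the 10 had an unadjusted p under 0.05, where the shares over all genes were 6.22% and 8.69%, and 0 were called. Against own controls 5 of the 10 did at each dose, where the shares were 6.45% and 5.19%. Summed over all 11 listed, their level at 500 mg/L was 6065 CPM in replicate 5 and 758, 639, 614 and 423 CPM in the other mice. In the controls of experiment 1 it was 487 to 1166 CPM. At 10 mg/L it was 666, 1823, 610, 1762 and 2981 CPM, against 551 to 833 CPM in the controls of experiment 2. The r of the immediate early genes with the set was −0.042 (rho −0.048), with −0.208 in experiment 1 and 0.435 in experiment 2, and their part was not tested. For red cell markers r was 0.080 (rho 0.153), with −0.407 and 0.873 by experiment. It was −0.079 (rho 0.265) for surface epithelium markers, with −0.247 and 0.347.

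As a set the genes varied less between mice than the median gene tested, with no matching for level. By SD they ran from percentile 25.0 of all genes, for Ccna2, to percentile 64.2, for Ccne1. The SD of log2 CPM within groups had a median of 0.19 over the 35 genes and 0.25 over all genes tested, and the biological coefficient of variation from edgeR had medians of 13.1% and 17.8%. Ccna2 and Mki67 spanned the least, 1.45-fold from the lowest to the highest of the 20 mice, and Ccne1 the most, 2.57-fold. Per kilobase of the longest coding transcript in GENCODE M21, Top2a had the highest level, with a median of 64.6 CPM per kb (47.6 to 78.2 over the mice). It was followed by Ccna2 at 47.5, Ccnb2 at 46.4 and Cdc20 at 45.9 CPM per kb, and Ccne2 (7.44), Knl1 (5.56) and Ccne1 (3.94) were the lowest. Neighbours in this order overlapped in their ranges over the mice.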

How the data were processed

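Poly(A) RNA of the 20 mice was turned into strand-specific libraries and sequenced single-ended over 101 cycles on 1 lane, according to the labels' protocols. The submitters' processing notes name GRCm39, R 4.1.2 with limma and edgeR, and the quantifier Salmon 1.2.0. The authors deposited estimated counts per gene, not normalised, in which similar genes share reads. Here they were rounded to whole numbers and scaled by TMM, and 17810 genes passed edgeR's expression filter.

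The main test was the robust quasi-likelihood test of edgeR 4.0.16 (two-sided), and p-values were adjusted over all genes tested by Benjamini-Hochberg. It was fitted with 1 mean per group, since the deposited comparisons use 1 control group, and with 1 mean per group in each experiment for comparisons with own controls. Levels of single genes are CPM, and log2 CPM used a prior count of 2. A mouse is the replicate. The script was tested on simulated data.

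The authors also deposited a results table with the average log2 expression, p-values and adjusted p-values, and scores (signed fold changes on a linear scale and a statistic F), per the file headers. It was used only where it is named.

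The genes and lists were chosen with earlier results of these data known. In addition to the named reference genes Mki67, Cdk1 and Ccnb1, genes described mouse by mouse are the 2 with the smallest p at each dose and between the control sets. Of other genes, the text names the 2 with the smallest p at each dose in each pathway list and the 10 and 5 most and least correlated with the set; genes in the closing observations and Ccne1 were added after their values were seen. The alternatives tried were other scalings, filters, tests, pooled spreads, a replicate block and leaving out each mouse. A genome of the files' build was not used here.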

Additional observations from a re-analysis of the deposited data

Results flagged for a closer look

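Ccnb1 in control replicate 7 stood apart from the other controls. It was at 51.8 CPM, and the nearest of the other 9 controls was at 70.2 CPM, a gap that on the log2 scale was 0.503 of the whole range of the 10 controls, where 0.466 is the critical value of Dixon's test. Of 108 groups of values tested for such gaps, 1 was beyond its critical value, and chance gives about 1 in 20. The same mouse was the lowest of the 20 in the mean of the 35 mitotic genes and had the highest summed luteal markers, 7374 CPM.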

How the results depend on the processing

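The count of 0 called genes among the 35 held in every comparison under every scaling, filter, test, pooling and left-out mouse that was run, and the medians kept their signs except those named here. At 10 mg/L, Mki67 changed by −0.0059 with no filter, by −0.0021 with limma-trend, by −0.0017 with limma-voom and by −0.00072 with DESeq2, and by −0.062 to 0.048 with 1 mouse left out. With 1 mouse left out, Cdk1 changed by −0.12 to 0.011 and Ccnb1 by −0.090 to 0.021 at 500 mg/L. Between the control sets the median ran from −0.039 to 0.10. At 500 mg/L the count at an unadjusted p under 0.05 ran from 3 to 8 against all controls and from 0 to 6 against own controls, and the medians from 0.025 to 0.11 and from 0.0018 to 0.14. Over all genes, edgeR called 1, 2, 2, 0, 0, 28 and 0 genes in the 7 comparisons, and DESeq2 8, 84, 118, 31, 5, 193 and 15, in the order 10 mg/L, 500 mg/L, 500 over 10 mg/L, each dose against own controls, the control sets, and the difference. The cause was not tested.

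Mice with the same replicate number did not deviate together in every pair (r of −0.13 to 0.23), so the numbers were not taken as pairs. With the replicate number as a block, 0 of the 35 genes were called, all-gene calls were 0 at 10 mg/L and 17 at 500 mg/L, and Ccnb1 at 10 mg/L changed by −0.031. The controls that shared numbers with the mice given 500 mg/L were all from the other experiment, run with the 10 mg/L group. The 17 calls at 500 mg/L therefore cannot be told apart from a difference between the experiments. No block could be fitted at 500 mg/L against own controls, which share no numbers. The lowest estimated count of any of the 35 genes in a library was 211.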

Other observations

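Among the inhibitors of cyclin-dependent kinases, genes differed in how their level followed the mitotic genes over the 20 mice. Cdkn2b, the inhibitor p15, ran against the mean of the 35 genes at an r of −0.609 (rho −0.645, −0.806 and −0.481 by experiment). It spanned 1.01 to 36.6 CPM. Cdkn1a, the inhibitor p21, ran against that mean at −0.451 (rho −0.511, −0.477 and −0.391 by experiment) over 5.76 to 27.5 CPM. Cdkn1b, the inhibitor p27 and the most abundant of the 3, was at 0.274 (rho 0.305) over 65.1 to 121 CPM. Of the D-type cyclins, Ccnd3 was at −0.641 (rho −0.441, −0.705 and −0.457 by experiment). Ccnd1 was at −0.556 (rho −0.517, −0.677 and −0.282 by experiment). Ccnd2, the main D-type cyclin of mouse granulosa cells, was at −0.031 (rho −0.032) over 209 to 675 CPM.

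Among DNA replication genes, those closest to the mitotic set were Dbf4, Rfc4, a subunit of the clamp loader, and Rrm1, a subunit of ribonucleotide reductase. Dbf4 was at an r of 0.821 (rho 0.732, 0.853 and 0.724 by experiment). Rfc4 was at 0.747 (rho 0.692, 0.861 and 0.401 by experiment), and Rrm1 at 0.632 (rho 0.576, 0.636 and 0.623 by experiment). The helicase subunits Mcm2 to Mcm7 ranged from 0.0023 for Mcm2 to 0.377 for Mcm6, and the licensing factor Cdc6 was at −0.086. Of the luteal markers, Star, which carries cholesterol into mitochondria, was at −0.639 (rho −0.650) and ran from 147 to 2538 CPM. Star was at −0.889 in experiment 1 and −0.233 in experiment 2, and at −0.405 without control replicates 7 and 3. The luteal marker Scarb1 was at −0.620, with −0.906 and 0.017 by experiment, and Parm1 was at −0.066. These values describe 1 set of mice and carry no test.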
